A study of Mus musculus with 2 samples.

Results

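Levels of 10 genes of the FOXO and mTOR signalling pathway were described in mouse CFU-E cells, the colony-forming erythroid progenitors that are committed to making red cells. The genes were fixed by name: the transcription factors Foxo1, Foxo3 and Foxo4, the kinase Mtor with its partners Rptor and Rictor, the regulators Tsc1, Tsc2 and Rheb, and the phosphoinositide 3-kinase (PI3K) subunit Pik3r1. All 10 were found, among 43346 Ensembl gene rows of which 21461 were nuclear protein-coding genes. The series held 1 group and no control: 2 libraries of rRNA-depleted total RNA, each from 100 ng, of primary cells from C57BL/6J mice, adult males of 5 to 6 weeks. No treatment or altered gene was stated, and the linked isolation protocol names bone marrow as the source. Both biological replicates carried the same donor identifier with different biosamples, and whether animals were pooled was not stated, so an SD given here covers these 2 samples and may be technical in part. Replicate 1 held 62576357 expected counts and replicate 2 held 36889517.

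The pathway joins growth factor signals to cell growth. Receptors such as those for erythropoietin and stem cell factor activate PI3K, a catalytic subunit held by a regulatory subunit such as the product of Pik3r1, and the lipid it makes recruits and activates the kinase AKT. AKT phosphorylates FOXO transcription factors, which then leave the nucleus, and it inhibits the TSC1-TSC2 complex, which otherwise switches off the small GTPase RHEB. RHEB activates mTOR complex 1, built on RAPTOR (Rptor), while mTOR complex 2, built on RICTOR, phosphorylates AKT in turn. In red cell precursors FOXO3 is known for driving antioxidant genes and maturation, and signalling by mTOR complex 1 for controlling cell growth and size.

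Because the 2 highest members turned out to be Pik3r1 and Foxo3, the sequences ahead of their start sites are shown first, with that of Foxo1, the lowest member, beside them. They come from the RefSeq promoter table (GRCm38.p6, the assembly of mm10), read 5′ to 3′ on the gene's strand over the 250 bases before a start, without bases that GENCODE M21 places in an exon of the gene. Windows were found for 9 of the 10 members, and Pik3r1 had 2, at the internal and distal starts to which most of its TPM was assigned. Capitals mark matches on either strand to a GATA motif (AGATAA and also AGATAG, as well as TGATAA and also TGATAG) or to CCNCNCCC, a pattern bound by KLF and SP proteins. Matches to CCNCNCCC can overlap each other.
Pik3r1 internal start, chr13:101692631-101692880, minus strand: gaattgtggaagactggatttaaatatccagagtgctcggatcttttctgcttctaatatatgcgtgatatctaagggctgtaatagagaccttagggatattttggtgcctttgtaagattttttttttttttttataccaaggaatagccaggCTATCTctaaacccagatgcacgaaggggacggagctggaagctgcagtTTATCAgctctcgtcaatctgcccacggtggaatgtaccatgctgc
Pik3r1 distal start, chr13:101768218-101768467, minus strand: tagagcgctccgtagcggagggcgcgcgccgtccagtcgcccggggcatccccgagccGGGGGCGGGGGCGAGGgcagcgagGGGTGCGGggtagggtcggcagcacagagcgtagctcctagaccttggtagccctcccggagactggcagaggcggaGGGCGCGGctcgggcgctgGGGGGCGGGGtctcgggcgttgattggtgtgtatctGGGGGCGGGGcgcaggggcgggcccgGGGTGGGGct
Foxo3, chr10:42276756-42276945, minus strand: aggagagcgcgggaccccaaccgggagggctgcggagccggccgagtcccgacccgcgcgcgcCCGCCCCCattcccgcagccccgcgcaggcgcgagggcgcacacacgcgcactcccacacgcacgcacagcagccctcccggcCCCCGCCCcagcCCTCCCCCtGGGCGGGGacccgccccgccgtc
Foxo1, chr3:52268087-52268335, plus strand: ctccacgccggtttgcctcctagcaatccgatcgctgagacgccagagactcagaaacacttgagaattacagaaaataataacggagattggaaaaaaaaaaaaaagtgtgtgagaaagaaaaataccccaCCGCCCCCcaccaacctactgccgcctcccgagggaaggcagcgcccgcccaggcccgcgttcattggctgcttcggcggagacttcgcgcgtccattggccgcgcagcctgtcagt

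The 2 windows of Pik3r1 differed in base composition and in motif matches. At the internal start the window was 42.4% G and C and held 2 GATA matches, beginning 95 and 46 bases before the start, and no CCNCNCCC. At the distal start it was 76.4% G and C and held 10 CCNCNCCC matches, with 4 overlaps between neighbours, and no GATA match. The Foxo3 window, also 76.4% G and C, had 4 CCNCNCCC matches, and the Foxo1 window, 56.0% G and C, had 1. Neither of these held a GATA match. In the member windows not shown, CCNCNCCC matches numbered 10 in Rictor, 2 in Tsc2, 1 each in Mtor and Rheb, and 0 in Tsc1 and Rptor. Of those windows only that of Tsc1 held a GATA match, with 1. Rictor, a member of middle level, thus had as many CCNCNCCC matches as the distal Pik3r1 window. Whether matches go with level was not tested. A GATA match was present in 26.5% of all 32851 windows of this length and a CCNCNCCC match in 45.9%. A FOXO motif (GTAAACA, either strand) was in 3.17% of windows and in none of the 10 member windows. These are matches of letters only, and no binding was measured.

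All 12 erythroid markers stood above 10 TPM in both libraries, with a median of 172.6 and Gata1 lowest at 14.9 ± 6.75 (SD, n = 2). Kit, the stem cell factor receptor that CFU-E cells are known to carry, was low at 0.42 and 0.51 TPM (TPM is explained with the levels). Markers of other cells were also present. Of the 8 granulocyte markers 7 stood at 10 TPM or above in both libraries, with a median of 48.9 TPM. S100a8 was the highest of these at 557 and 253 TPM. The erythroid markers summed to 7867 and 3470 TPM. All 8 granulocyte markers reached 1 TPM in both libraries (summed level 1197 and 604 TPM), as did 7 of 8 monocyte and macrophage markers (39.5 and 27.1), 4 of 8 B cell markers (39.0 and 21.2), 2 of 8 T and NK cell markers (7.16 and 3.77), 2 of 8 megakaryocyte markers (14.1 and 4.58) and none of 8 stem and early progenitor markers (3.64 and 1.46), a list that holds Kit. Among the B cell markers Ighm had 26.4 and 14.2 TPM and Cd79b 6.14 and 2.30, and among the megakaryocyte markers Itga2b had 4.6 and 1.62 and Vwf 4.52 and 1.56. Several defining markers had 0 counts in 1 library only: Vpreb1 had 0 and 81 counts in replicates 1 and 2, Cd8a 0 and 13, Cd3d 55 and 0, Gp1ba 58 and 0, and Hoxa9 163 and 0. The part of these cells in the levels of the members was not tested, and in RNA from bulk cells fewer cells of a type cannot be told apart from less RNA per cell.

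Levels are given in TPM, a transcript abundance in which counts are divided by effective length and scaled to a fixed library total, so that genes can be compared. In both libraries 7 of the 10 members stood at 1 TPM or above, against 23.9% of nuclear protein-coding genes. Of the 138 other pathway genes described below 50.7% did so, and by list the share ran from 22.2% to 83.3%. The median level of the members was 2.29 TPM, against 0.055 over all nuclear protein-coding genes. The latter median is over a set in which 9193 genes had 0 counts in both libraries. Nuclear protein-coding genes together also summed to only 124200 TPM in replicate 1 and 74869 in replicate 2. An SD of deposited TPM thus includes this shift of the whole scale and is not the spread of a gene alone. The order in gene TPM, which counts non-coding models of a gene as well, was Foxo3, Pik3r1, Rheb, Mtor, Tsc1, Foxo4, Rictor, Rptor, Tsc2, Foxo1. Foxo3 and Pik3r1 overlapped in range, with Foxo3 ahead in replicate 1 and Pik3r1 in replicate 2. Mtor, Tsc1, Foxo4 and Rictor formed a group whose neighbours overlapped in range, between 1.91 and 2.94 TPM. The other steps (Pik3r1 to Rheb, Rheb to Mtor, Rictor to Rptor, Rptor to Tsc2 and Tsc2 to Foxo1) kept their order in both libraries, with no overlap.

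**Figure D1:**
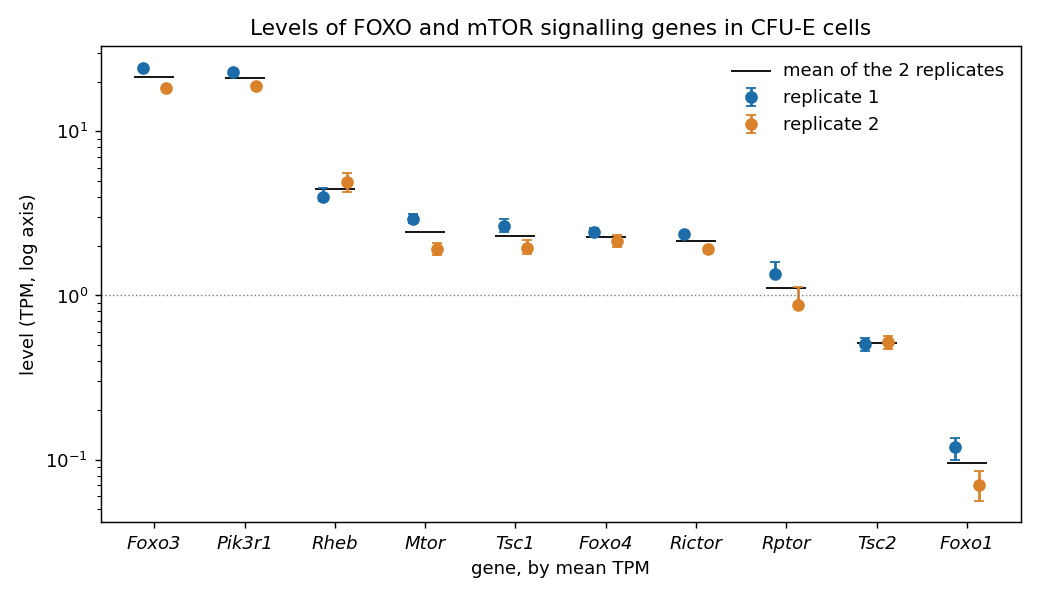
Level of each gene in TPM (log axis) in replicate 1 (blue) and replicate 2 (orange), ordered by the mean of both (black line). Bars are the credibility intervals deposited for each library, and the dotted line is at 1 TPM; Foxo3 and Pik3r1 lie between 18.3 and 24.1, and Foxo1 lies at 0.12 and 0.07.

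Pik3r1 encodes the p85 alpha regulatory subunit of class IA PI3K and shorter forms of it (chromosome 13, 101680563 to 101768217). It had 12446 counts in replicate 1 and 8913 in replicate 2, or 23.0 and 18.9 TPM, a mean of 20.96 ± 2.89 (SD, n = 2). Only 723 and 553 nuclear protein-coding genes were higher in the respective library. Its paralogs were far lower: Pik3r2, another class IA regulatory subunit, had 1.07 and 0.58 TPM, and Pik3r3 had 0.77 and 0.12. Pik3r1 thus held 92.6% and 96.4% of the TPM of these 3 genes. The log2 ratio to Pik3r2 was 4.73 ± 0.42 (SD, n = 2) and that to Pik3r3 was 6.10 ± 1.70. The latter was 4.90 in replicate 1 and 7.30 in replicate 2, where Pik3r3 had only 42 counts.

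Most Pik3r1 abundance was assigned to transcripts from the internal start rather than to the long form. Pik3r1-201 (2923 bases, 454 codons), a short form that lacks the amino-terminal part of p85 alpha, had 16.96 and 11.08 TPM. Pik3r1-202 (7113 bases, 724 codons), the full p85 alpha form, had 4.31 and 3.86 TPM. A partial coding transcript, Pik3r1-205, was listed at 0 in replicate 1 and at 2.59 TPM in replicate 2. It begins within 100 bases of the same internal start as Pik3r1-201. Summed by start, the internal site took 73.75% and 72.29% of Pik3r1 TPM and the distal site, 75587 bases upstream, took 18.73% and 20.44%. Transcripts with other starts took 7.52% and 7.27%. The excess of internal over distal was 3.94-fold and 3.54-fold, so the split by start varied less between libraries than the split by transcript. By counts, which are not corrected for length, the internal site had 7485 and 4785 and the distal site 4851 and 4042. The annotated forms differ at their 3′ ends as well as at their starts, so a transcript that joined the internal start to the longer 3′ end would have no entry of its own.

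**Figure D2:**
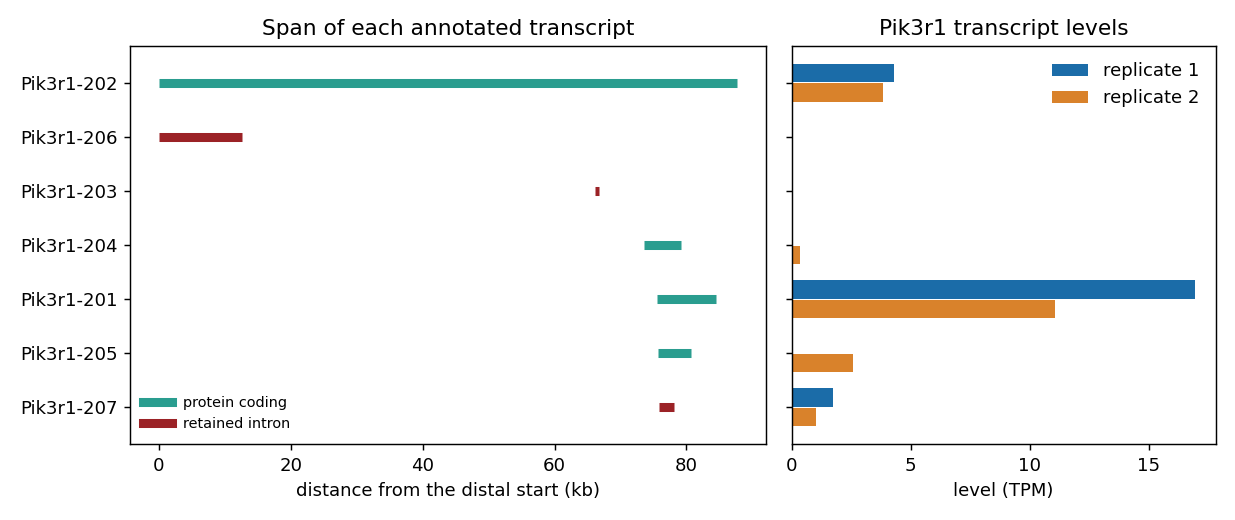
Annotated Pik3r1 transcripts drawn by their span in kilobases from the distal start (left; green coding, red retained intron) with their level in TPM in each library (right; blue replicate 1, orange replicate 2; no error bars). Pik3r1-201, from the internal start, stands at 16.96 and 11.08 TPM and Pik3r1-202, from the distal start, at 4.31 and 3.86.

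The rest of the PI3K list was low beside Pik3r1. Of its 17 genes 4 reached 1 TPM in both libraries, with a median of 0.825 TPM. That share, 23.5%, was close to the 23.9% of all nuclear protein-coding genes, and the median was above their 0.055 TPM. Among the highest were Inpp5d, the SHIP1 phosphatase of blood cells, at 1.61 ± 0.60 TPM (SD, n = 2), and Pik3ip1, an inhibitor of PI3K. Pik3ip1 was carried by 1 library, with 212 counts in replicate 1 and 18 in replicate 2 (2.68 and 0.21 TPM). The count of genes rested on the cut and on replicate 2, and it was 9 in replicate 1 alone. It was 14 at 1 TPM with TPM set to a fixed total over nuclear protein-coding genes (rescaled TPM). That scale raises every gene, so the same cut is looser there. The share of all nuclear protein-coding genes was not computed at either of these settings. At 10 rescaled TPM in both libraries the list had 3 genes, against 5353 of all 21461 nuclear protein-coding genes. In the AKT list 10 of 12 genes reached 1 TPM in both libraries, with a median of 4.64. Sgk3, an AKT-like kinase, led at 17.6 ± 3.66, followed by Ppp2ca, a phosphatase catalytic subunit, at 8.21 ± 4.05 and Pdpk1, which activates AKT, at 7.99 ± 2.79. On rescaled TPM these 3 had 182 ± 27.1, 80.2 ± 12.6 and 80.3 ± 0.15. Akt1 and Akt2, named here after their values were seen, had 3.65 ± 2.46 and 3.56 ± 0.30, with ranges that overlapped.

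Tsc1 and Tsc2 encode hamartin and tuberin, the scaffold and the GTPase-activating subunit of the complex that inhibits RHEB. Tsc1 lies on chromosome 2 (28641228 to 28691167), with 1876 counts in replicate 1 and 1325 in replicate 2, which gave 2.65 and 1.94 TPM. Tsc2 lies on chromosome 17 (24595816 to 24632630), with 483 and 458 counts, and stayed under 1 TPM in both libraries at 0.51 and 0.52. Tsc2 thus lay below Tsc1 in gene TPM in each library, at 0.193 and 0.268 of its level, a log2 ratio of -2.14 ± 0.34 (SD, n = 2). The gene TPM of Tsc1 counts retained intron models, and its coding transcripts held only 45.2% and 46.3% of it. Tsc2 has 1 transcript here, a coding one, so the gap between coding transcripts alone is smaller. The 3′ end of Tsc2 overlaps that of Pkd1 on the opposite strand, a gene with 2057 and 1485 counts, and the use of strand in counting was not stated. Tbc1d7, a further subunit of that complex, which falls outside the rule for named genes, had 10 counts in replicate 1 and 0 in replicate 2.

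Rheb, the GTPase that activates mTOR complex 1, followed Foxo3 and Pik3r1 in gene TPM (chromosome 5, 24802823 to 24842624). It had 1459 and 1156 counts, or 3.95 and 4.91 TPM, and was one of 2 members, with Tsc2, whose TPM was higher in replicate 2. That place rests on the gene TPM, which counts its retained intron models: its coding transcript alone had 2.73 and 2.54 TPM. By CPM, counts scaled to library size but not corrected for length, Rheb (27.2) was below Rictor (63.6), Mtor (53.2) and Tsc1 (32.9). Its paralog Rhebl1 had 0 counts in both libraries, so Rheb was at least 151.1-fold higher in the first library and at least 183.4-fold in the second (limit of 3 counts in each, counting error only). In the list of inputs to TSC, RHEB and the energy sensor AMPK, 5 of 13 genes reached 1 TPM in both libraries. Stk11, which encodes the LKB1 kinase that activates AMPK, stood highest at 58.8 and 32.0 TPM, a mean of 45.4 ± 19.0 (SD, n = 2). The AMPK subunit Prkab1 had 8.77 ± 1.20 and Rps6ka1, the RSK1 kinase that also phosphorylates TSC2, had 8.74 ± 2.21. Prkaa2, a catalytic subunit of AMPK, had 0 counts in both libraries, which allows up to 0.00237 and 0.00255 TPM. Prkaa1, the other catalytic subunit, named after its values were seen, had 2.70 and 1.51 TPM.

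Mtor and Rictor stood at like levels and Rptor below them. Mtor, the kinase of both complexes, lies on chromosome 4 (148448611 to 148557683) and gave 2.94 and 1.91 TPM from 3331 and 1962 counts. Rictor, on chromosome 15 (6708379 to 6800401), gave 2.37 and 1.91 TPM from 3516 and 2627 counts. Rptor, on chromosome 11 (119602905 to 119899576), gave 1.36 and 0.87 TPM from 998 and 598 counts, and so was under 1 TPM in replicate 2. Mtor lay above 81.6% and 82.0% of nuclear protein-coding genes, Rictor above 79.1% and 82.0%, and Rptor above 73.3% and 73.5%. The ranges of Mtor and Rictor overlapped. Rptor lay below Rictor in both libraries, by a log2 ratio of -0.97 ± 0.24 (SD, n = 2). Mtor exceeded Rptor 2.16-fold and 2.195-fold, a log2 ratio of 1.12 ± 0.02 (0.99 by posterior mean TPM).

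Among other subunits of the mTOR complexes and their assembly factors 2 of 9 reached 1 TPM in both libraries: Mapkap1, a core subunit of complex 2, at 2.31 and 2.27 TPM, and Tti1, an assembly factor. Tti1 falls outside the rule for named genes. The share, 22.2%, was close to the 23.9% of all nuclear protein-coding genes. Telo2, an assembly factor, had 5.68 and 0.82 TPM, and Akt1s1, the PRAS40 inhibitor of complex 1, had 4.6 and 0.48. Their counts differed less, with 734 and 217 for Telo2 and 219 and 83 for Akt1s1, log2 ratios of 1.06 and 0.70 on TMM-scaled counts, and in replicate 2 they had 10.95 and 6.41 rescaled TPM. The count of 2 was 5 in replicate 1 alone and 6 at the looser cut of 1 rescaled TPM. At 10 rescaled TPM in both libraries it was 3. Mlst8, shared by both complexes and named after its values were seen, had 1.25 and 0.83 TPM. Prr5l, a partner of complex 2, had 0 counts in both libraries, which allows up to 0.0156 and 0.0163 TPM.

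Amino acid supply reaches mTOR complex 1 through the Rag GTPases, and 11 of 26 genes of that list reached 1 TPM in both libraries. Highest was Nprl3, a subunit of the inhibitory GATOR1 complex whose introns hold the enhancers of the alpha globin genes, at 19.4 and 12.1 TPM. Fnip2, a partner of folliculin, had 9.995 ± 2.03 TPM (SD, n = 2) and Sesn1, a sestrin, had 6.38 ± 2.06. By counts, which are not corrected for length, Nprl3 (2744 and 1547) lay below Fnip2 (9294 and 5039) and Sesn1 (3584 and 2120). Rragb, one of the Rag GTPases, had 0 counts in both libraries, which allows up to 0.0138 and 0.0145 TPM. Rraga, another of them, named after its values were seen, had 1.11 and 1.14 TPM. At the looser cut of 1 rescaled TPM 21 of the 26 genes passed in both libraries, and at 10 rescaled TPM 11 did. Of the outputs of mTOR 9 of 16 reached 1 TPM in both libraries in deposited TPM. They were led by Rps6, the ribosomal protein phosphorylated by S6 kinase, at 30.6 and 30.1 TPM with fractional counts, as when reads are divided between genes. Eif4b, an initiation factor, had 8.24 ± 2.92 and Rps6kb1, which encodes S6 kinase 1, had 6.61 ± 4.58, with 9.85 and 3.37 TPM in the libraries. The counts of Rps6kb1 differed less, with 4187 and 2145, a log2 ratio of 0.27 on TMM-scaled counts. Eif4ebp3, a repressor of the cap-binding factor, had 0 counts in both. Its paralogs Eif4ebp1 and Eif4ebp2, named after their values were seen, had 1.66 and 0.82 TPM and 1.77 and 0.96 TPM.

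Foxo3 was the dominant FOXO gene. It lies on chromosome 10 (42181841 to 42276755) and had 24252 and 16997 counts, or 24.1 and 18.3 TPM, a mean of 21.2 ± 4.11 (SD, n = 2). In all, 693 and 569 nuclear protein-coding genes were higher. Foxo4, a less studied family member on chromosome X (101254528 to 101260873), gave 2.43 and 2.14 TPM from 1165 and 819 counts. Foxo1, the FOXO gene known for roles in lymphocytes and liver, lies on chromosome 3 (52268336 to 52353221). It gave 0.12 and 0.07 TPM from 163 and 90 counts, with 9649 and 10109 such genes above it. Foxo6 had 0 counts in both libraries, which allows up to 0.00767 and 0.00817 TPM.

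Foxo3 therefore held 90.4% and 89.2% of the summed FOXO TPM, Foxo4 9.10% and 10.4%, and Foxo1 0.45% and 0.341%. The log2 ratio of Foxo3 to Foxo1 was 7.84 ± 0.27 and that of Foxo3 to Foxo4 was 3.21 ± 0.15 (SD, n = 2 each). By counts, with no correction for length, these were 7.39 and 4.38.

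Genes around FOXO were described from lists. Of 19 FOXO regulators found by symbol, out of 20, 15 reached 1 TPM in both libraries and the median was 4.94 TPM. Usp7, a deubiquitinase that acts on FOXO and p53 pathway proteins, stood at 145 and 114 TPM, and Xpo1, the exportin that carries FOXO out of the nucleus, at 42.7 and 27.4. Ywhah, a 14-3-3 protein of the family that binds phosphorylated FOXO, had 26.3 ± 12.6 (SD, n = 2). Of 29 genes known as FOXO targets, 15 reached that level (25 at 1 rescaled TPM and 17 at 10 rescaled TPM). Gpx1, the glutathione peroxidase of red cells, was highest at 364 and 211 TPM, followed by Gadd45a, a stress response gene, at 18.3 ± 9.37 and Cdkn1b, the p27 inhibitor of the cell cycle, at 11.6 ± 5.80. A target list made in other tissues shows levels only and not what FOXO3 does in these cells.

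**Figure D3:**
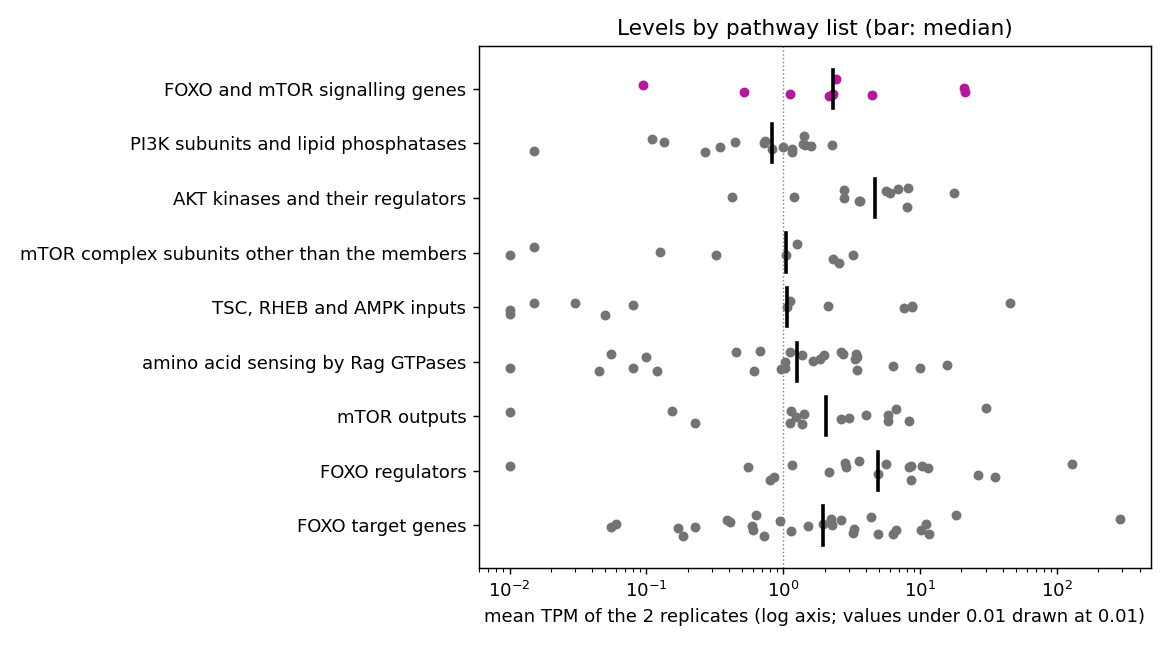
Mean TPM of the 2 replicates (log axis) for each gene of the FOXO and mTOR signalling set (purple) and of 8 lists of other pathway genes (grey), with the list median as a black bar. The medians run from 0.825 TPM for PI3K genes to 4.94 for FOXO regulators, and the set itself has 2.29.

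Transcripts annotated as retained intron or nonsense-mediated decay took a large share of 3 members. Shares are the deposited isoform percentages of TPM, and classes are those of GENCODE M21. Over 2596 nuclear protein-coding genes with several annotated transcripts and 1000 or more counts on average, retained intron transcripts took a median of 3.70% in replicate 1 and 6.69% in replicate 2. The upper quartiles were 27.7% and 30.2%, and 262 and 250 of these genes were at 50% or more. In Tsc1 they took 53.8% and 49.7%. In Rptor they took 54.9% and 38.9%, and in Rheb 30.9% and 48.3%, the first of which is near the upper quartile. Rptor, with a mean count of 798, is not among the 2596 genes. By contrast Mtor had 0.70% and 5.31%, Pik3r1 7.52% and 5.42%, and Foxo3 had no such transcript annotated among its 5. Foxo1, Rictor and Tsc2 each have 1 annotated transcript in these tables and so no share to divide.

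Expected counts assigned no Rptor reads to its full-length coding transcript. Rptor-201 (6594 bases, 1335 codons) was listed at 0 counts in both libraries, with upper credibility bounds of 0.00692 and 0.041 TPM. By posterior mean TPM the coding models of Rptor together held 2.96% and 6.73%. Rptor-211, a nonsense-mediated decay transcript of 6138 bases, had 591 and 406 counts, or 45.1% and 51.8% of the gene. The exons of Rptor-211 cover 90.5% of the bases of Rptor-201, and 97.2% of Rptor-211 is shared, so the assignment rests on the remaining bases. The retained intron transcripts Rptor-210 and Rptor-206 took 35.7% and 15.4%, and 19.2% and 18.2%. The TPM of Rptor thus depends on how its reads were divided among these models, and its posterior mean TPM was 1.46 and 0.98 against 1.36 and 0.87.

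Single coding models of Tsc1 changed places between the libraries while their sum was much the same. Tsc1-204 took 45.2% in replicate 1 and 0% in replicate 2, where Tsc1-201 and Tsc1-202 took 26.5% and 19.8% after 0% each in replicate 1. Together the 4 coding transcripts took 45.2% and 46.3%. The level of Tsc1-204 in replicate 1, 1.20 TPM, lay above its own credibility interval of 0.135 to 0.947, so single Tsc1 transcripts were not resolved. Among retained intron models of Tsc1, Tsc1-208 took 26.7% and 4.28%, Tsc1-206 0% and 18.7%, Tsc1-205 16.8% and 11.5%, and Tsc1-210 10.3% and 15.2%. In Rheb the single coding transcript, Rheb-201 (184 codons), had 2.73 and 2.54 TPM, a smaller difference than that of the whole gene. The retained intron transcript Rheb-202, of 522 bases, had 0 counts in replicate 1 and 81.1 in replicate 2, which gave 1.58 TPM or 32.2% of the gene there. Rheb-203, also retained intron, took 30.9% and 16.1%.

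In the remaining members with several transcripts 1 transcript took most of the abundance. Foxo3-203 (6848 bases, 672 codons) took 90.3% and 90.4% of Foxo3, at 21.8 and 16.6 TPM. Mtor-202, the full-length form of 2549 codons, took 81.4% and 78.4%, and Mtor-201, a short model of 1003 bases, 17.9% and 16.3% from 67.0 and 38.6 counts. Foxo4-201 took 100% and 79.1%, and the non-coding Foxo4-203 took 0% and 20.9% from 0 and 57.3 counts.

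**Figure D4:**
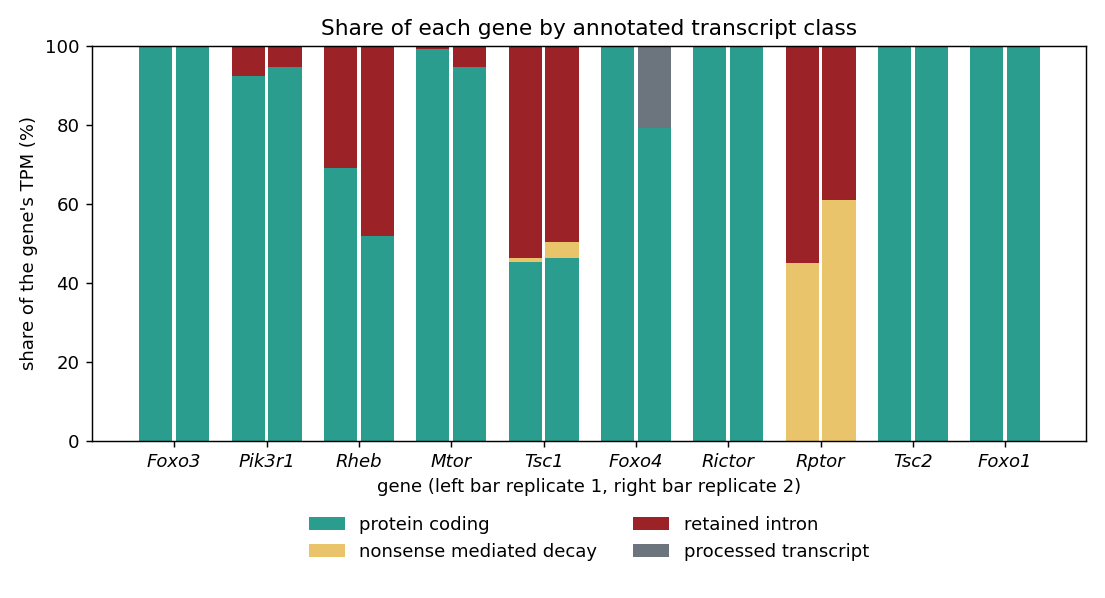
Share of each gene's TPM (percent) by GENCODE M21 transcript class, in replicate 1 (left bar) and replicate 2 (right bar), with genes ordered by mean TPM and no error bars. Retained intron models (red) hold 53.8% and 49.7% of Tsc1, and coding models (green) hold 0% of Rptor in both libraries (2.96% and 6.73% by posterior mean).

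Between the replicates the differences of the members were under 2-fold on counts, and 1 member, Rheb, passed 2-fold on rescaled TPM. On counts scaled by TMM, a method that sets libraries on a common scale from most genes, the log2 ratio of replicate 1 over replicate 2 ran from -0.62 for Tsc2 to 0.16 for Foxo1. It was -0.19 for Foxo3, -0.22 for Pik3r1, -0.36 for Rheb, -0.28 for Rictor, -0.20 for Tsc1, -0.19 for Foxo4, 0.06 for Mtor and 0.04 for Rptor. On this scale none of the 10 differed 2-fold or more, against 21.1% of 10403 genes that averaged 50 counts or above. Among the nuclear protein-coding ones the share was 18.8%, with 9.91% higher in replicate 1 and 8.85% higher in replicate 2. Apart from Foxo1 and Tsc2 the members averaged 798 counts or above, so the member count and these shares are not matched on depth. There is 1 library on each side, and no p-value was computed. Of the 138 other pathway genes 121 averaged 50 counts or above, and of these 10 were 2-fold or more higher in replicate 1 and 8 in replicate 2.

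**Figure D5:**
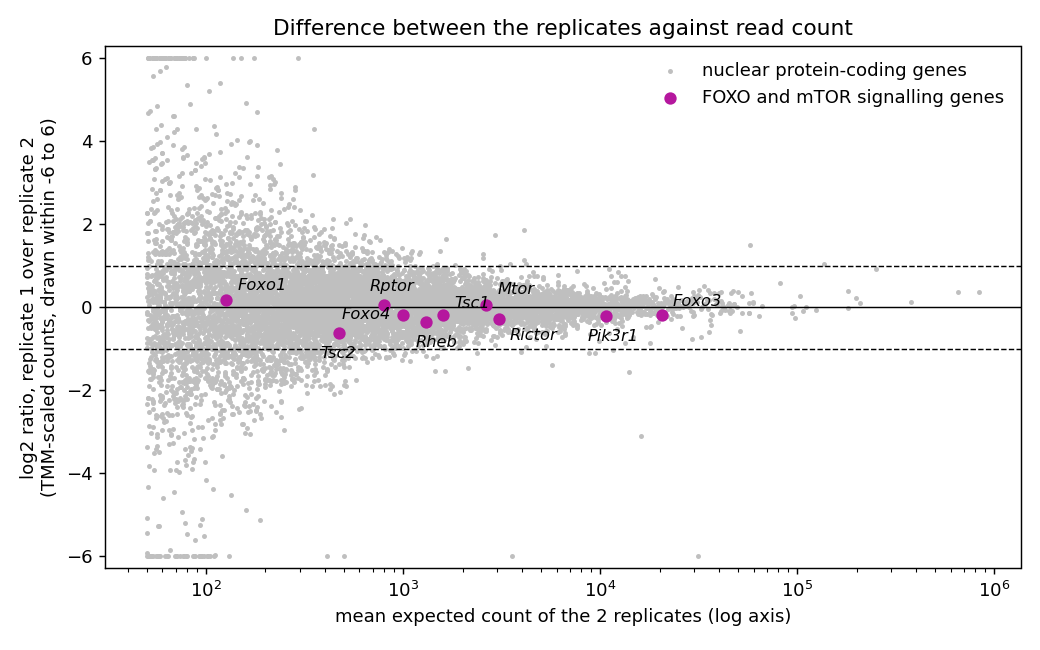
Log2 ratio of replicate 1 over replicate 2 (TMM-scaled counts, drawn within -6 to 6) against mean expected count (log axis) for nuclear protein-coding genes averaging 50 counts or above (grey) and the 10 members (purple). Dashed lines mark 2-fold; the members lie between -0.62 and 0.16.

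The direction of these small differences depended on the scale. The members had a median of -0.19 on TMM-scaled counts, with 3 higher in replicate 1 and 7 in replicate 2, but a median of 0.33 on the ratio of deposited TPM, with 8 and 2. Nuclear protein-coding genes as a whole had a median of 0.61 on that TPM ratio and 0.03 on TMM-scaled counts, so the members' median lay below theirs on both scales. On rescaled TPM Foxo3 had 194 and 245, Pik3r1 185 and 253, Rheb 31.8 and 65.6, Tsc2 4.11 and 6.95, and Foxo1 0.966 and 0.935. On that scale the log2 ratios ran from -1.04 for Rheb to 0.04 for Foxo1, with 9 of 10 members higher in replicate 2 and a median of -0.37, and 25.3% of the 10403 genes differed 2-fold or more. The counts of all 10 members were whole numbers in both libraries, as when no reads are divided between genes.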

How the data were processed

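Total RNA depleted of ribosomal RNA was measured in 2 libraries of 1 group. Per the labels, libraries were made with ScriptSeq. The authors deposited gene and transcript tables on mm10 with GENCODE M4, per the notes deposited with them. Column names follow those of RSEM output, but the aligner was not given in the sources used here. Per the file headers the deposited values are expected counts, which are estimates, TPM, posterior mean TPM and isoform percent. The deposited credibility bounds are a signal on the TPM scale. Symbols, classes and coordinates came from GENCODE M21, matched on Ensembl identifiers without version (42462 of 43346 gene rows). Spike-in rows and rows named by a number were left out. Depth was 62576357 and 36889517 expected counts; a gene with no count is given the limit that 3 counts in that library would set. Such limits hold counting error alone. The credibility bounds also reflect how reads were divided among transcripts. An example is Tsc1-204 in replicate 1, with 1446 counts and bounds of 0.135 to 0.947 TPM. Neither allows for PCR copies of 1 molecule, which are counted as separate reads.

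Expected counts were rounded and scaled by TMM (edgeR 4.0.16, R 4.3.3), with DESeq2 1.42.0 size factors as an alternative and a prior count of 0.5. The ratios of deposited and rescaled TPM used a pseudocount of 0.1. Rescaled TPM has the usual TPM total over nuclear protein-coding genes alone. Tables were joined in Python 3.11.15 with pandas 2.3.3, and the ratio calculation was tested on simulated data. No test between groups was possible. Named genes are the members, the 3 highest genes of each list, list genes at 0 counts in both libraries and both genes of each pair; exceptions are stated, and some genes that the rule names are not reported here. The members and lists were chosen with earlier results of these data known. Prmt1 of the FOXO regulators was not found by symbol.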

Additional observations from a re-analysis of the deposited data

How the results depend on the processing

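No paired analysis was possible because the series holds 1 group. The cause of the changes below was not tested. The direction of the members between replicates turned with the scale: the median log2 ratio of -0.19 became 0.33 on the ratio of deposited TPM. The other 6 settings kept it negative, from -0.19 to -0.37. The lowest was on rescaled TPM, a ratio added after the data were seen, which alone put 1 member (Rheb) at 2-fold; the other settings put 0 there.

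At a minimum of 5 TPM in both libraries, 2 members were left, with 4 AKT, 3 TSC, RHEB and AMPK, 2 Rag, 3 output, 8 FOXO regulator and 6 FOXO target genes, and 0 PI3K and 0 mTOR complex genes. At 0.5 TPM the PI3K, mTOR complex and Rag lists had 8, 4 and 18. At 1 TPM rescaled to the nuclear protein-coding total the PI3K, mTOR complex, Rag and FOXO target lists had 14, 6, 21 and 25. Rescaling raises the TPM of every gene, so that cut is looser. At 10 rescaled TPM these lists had 3, 3, 11 and 17, against 5353 of all 21461 nuclear protein-coding genes. The share of all nuclear protein-coding genes was not computed at 5 TPM, 0.5 TPM or 1 rescaled TPM. The counts at those settings therefore do not set the lists apart from other genes. With 1 library left out the counts ranged from 7 to 8 for members, 5 to 9 for PI3K, 10 to 11 for AKT, 2 to 5 for mTOR complexes, 13 to 15 for Rag, 9 to 13 for outputs, 15 to 16 for FOXO regulators and 16 to 17 for FOXO targets, and were 6 either way for TSC, RHEB and AMPK.

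Without a length correction, from counts, the log2 ratios were 7.39 (Foxo3 to Foxo1), 4.38 (Foxo3 to Foxo4), -1.98 (Rptor to Rictor), -1.75 (Tsc2 to Tsc1), 1.73 (Mtor to Rptor) and 8.76 (Rheb to the limit for Rhebl1). By posterior mean TPM Mtor to Rptor was 0.99. No pair changed direction. The isoform percentages from posterior mean TPM were added after the data were seen and moved the share of Pik3r1 at the internal start from 73.0 to 72.8, the coding share of Rptor from 0 to 4.85 and that of Tsc1 from 45.8 to 44.1.

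Foxo1, with 163 and 90 counts, is the member most limited by depth.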
